A study of Mus musculus with 2 samples.

Results

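Replication-dependent histone genes were examined in epithelial cells of the mouse submandibular gland, one of the major salivary glands, at a young and an old age. The genes were chosen by name alone, as every probe for a transcript whose gene name in the array files begins with Hist1h, Hist2h, Hist3h or Hist4h. This gave 74 probes of 57 genes, out of 56605 probes and 36870 gene names on the array. Cells were collected with magnetic beads against EpCAM, a surface protein of epithelial cells, from female C57BL/6 mice, given as C57BL/6N in the study's methods. One array was hybridised for mice aged 9 weeks (young) and 1 array for mice aged 24 months (aged), with no other treatment or allele in the labels. The number of mice behind each array is not given in the sources used here. Each age has a single array, so that no difference is backed by replicates, no test was made and no p-value is given, and the ages cannot be told apart from the arrays that carried them.

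Histone proteins pack DNA into nucleosomes, in which DNA winds around a core of H2A, H2B, H3 and H4, while H1 binds the linker DNA between cores. Most of these proteins are made in S phase from clustered, intronless genes, when new DNA has to be packed. The mRNAs of these genes end in a short stem-loop in place of a poly(A) tail, and the stem-loop is bound by SLBP, which guides 3' end formation, export, translation and decay. Some of the genes also give polyadenylated transcripts that run past the stem-loop, chiefly in differentiated cells. The RNA was labelled with a kit whose standard primer anneals to poly(A), so how far each probe reads the tail-less or the polyadenylated transcript was not tested.

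The array probes are 60 bases long, and where they lie decides which transcripts they can read. A search for the stem-loop, spelled as GG, any 2 bases, CTTTT, any base, AG, any base and GCC and read on both strands, found it whole in 6 of the 74 histone probes (8.11%) and in none of the 56531 other probes, which is 0.0106% of all probes. On the probe strand, a further 4 histone probes ended inside it and 2 began inside it. The 30-base stretches that hold the stem-loop are shown for the probes on which the results below turn, from the deposited probe sequences, 5' to 3', with the bases of the stem-loop in capitals.
Hist1h1c: gcctcccctaacaatccaaaaGGCTCTTTT
Hist1h2ab: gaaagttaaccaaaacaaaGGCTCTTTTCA
Hist1h2ai: cattacgaatcaccaaaGGCTCTTTTCAGA
Hist3h2ba: agcgcccccaacccaaaGGCTCTTTTCAGA
Hist2h2aa1: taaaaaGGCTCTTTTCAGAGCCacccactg
Hist2h2bb: ggctttacccaaaaGGCTCTTTTCAGAGCC
Hist1h3i: tgttaataacaaaaGGCTCTTTTCAGAGCC
Hist1h4m: ctttctcaactaaaGGCCCTTTTCAGGGCC
The first 4 of these stop within the stem-loop, and the last 4 hold it whole.

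Other probes lie in coding sequence, parts of which several core histone genes of a class share almost letter for letter. The probes for 6 H2A genes end at the stop codon and cover the last codons of the protein. They are shown for Hist2h2aa2 and for 3 genes of the Hist1 cluster, where capitals mark the bases that differ from the Hist2h2aa2 probe.
Hist2h2aa2: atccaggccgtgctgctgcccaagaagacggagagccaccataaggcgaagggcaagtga
Hist1h2af: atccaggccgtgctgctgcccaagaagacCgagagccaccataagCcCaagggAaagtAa
Hist1h2ak: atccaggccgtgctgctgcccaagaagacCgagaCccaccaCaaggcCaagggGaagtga
Hist1h2an: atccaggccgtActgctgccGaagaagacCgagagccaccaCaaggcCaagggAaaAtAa
A probe of this kind can bind the transcripts of several genes. The files list transcripts of more than 1 gene for 18 of the 74 probes. Another histone gene's probe was near-identical for 13 probes, meaning at most 6 mismatches over an overlap of at least 45 bases. Together 22 probes are called shared below, and the gene that gave their signal cannot be told apart from its copies. The other 52 probes are called own-sequence probes. For 20 of these 52 the files list no RefSeq transcript, so they were compared with the other histone probes only. The name therefore does not mean that a sequence is unique.

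For each probe the processed spot intensity was divided by the 75th percentile of its array, 256 for the young array and 198 for the aged one, and taken as log2. This value is called the relative level, and every difference is the relative level on the aged array minus that on the young array. A signal counted as measured where the scanner software marked it as well above background, for which the lowest signals were 14.1 (young) and 14.3 (aged). Where a probe was measured on 1 array only, the fold is a limit, written as "at least". It sets the measured signal against the higher of the lowest measured signal on the dim array and the probe's own signal there. The software's own error of a difference, which covers the arrays and not the mice, had a median of 0.20 over the histone probes. The Hist1h4d probe printed in 10 spots, of which 9 were used, differed by 0.00 ± 0.035 (SD over spots), with signals of 6151 to 6551 in young cells and 4782 to 5024 on the aged array.

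Most histone probes lay near the middle of all probes, and a minority of own-sequence probes was much lower in the aged cells. At least 1 array measured 63 of the 74 probes (85.1%), beside 54.6% of all probes. Both arrays measured 56 (75.7%, beside 47.3% of all probes), the young array alone 7 (beside 6.11%), the aged array alone 0 (beside 1.24%) and neither array 11. Of the 56 probes measured on both, 8 (14.3%) were lower by 2-fold or more in the aged cells, the fold named in the study's methods, against 2.80% of the 26745 probes of the whole array measured on both. With the normexp background correction 3 of these 8 stayed past 2-fold, and with a signal of at least 50 required on both arrays 5 were left. That filter leaves out dim probes whatever their fold and changes no difference. The count of lower probes over the whole array fell too, from 750 to 238 of 26745 with normexp. It was 320 of 19748 with the signal filter. None of the 56 histone probes was at least 2-fold higher, against 1.41% of all probes, although centring on the median put 2 probes past 2-fold higher. Among the 7 probes measured on the young array only, the limit reached 2-fold for 3 (42.9%), against 21.1% of 3459 such probes on the array, and with normexp for 0. The 11 probes that were lower belong to 9 genes, namely the linker histones Hist1h1b and Hist1h1c, the H2A genes Hist1h2ab, Hist1h2ad and Hist1h2ao, the H2B genes Hist1h2be, Hist2h2be and Hist3h2ba, and the H3 gene Hist1h3i. Other shared probes that are also listed for Hist1h2ab, Hist1h2ad, Hist1h2ao or Hist1h3i were not 2-fold lower. The median difference of the 56 probes was 0.13, beside 0.09 for all probes measured on both arrays, whose quartiles were -0.18 and 0.33. The median of the histone probes turned below 0 under 3 other scalings, to -0.11 with quantile normalisation, -0.14 with a loess fit on mean signal and -0.13 with scaling to the spike-in controls. In total 21 of the 56 probes (37.5%) were below 0, beside 40.8% of all probes. Because RNA came from a cell population, fewer cells of a type and less RNA per cell cannot be told apart.

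**Figure D1:**
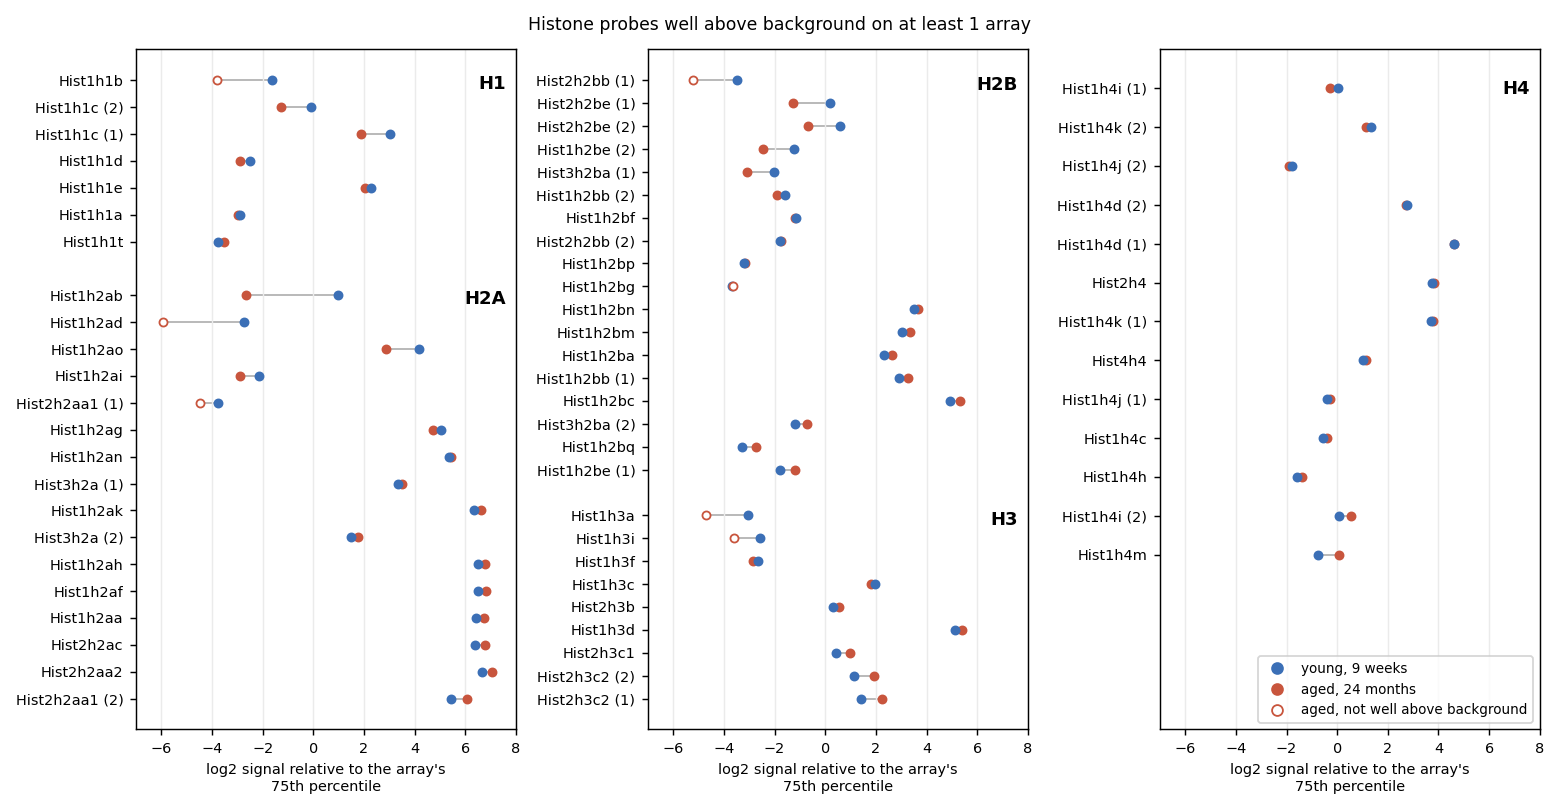
Relative level (log2 signal over the array's 75th percentile, horizontal axis) of the 63 histone probes measured on at least 1 array, by histone class, with the young array in blue and the aged array in red; a number in parentheses tells probes of one gene apart, and open symbols mark aged signals that were not well above background. Hist1h2ab shows the widest gap between measured values, from 0.99 to -2.67, while the bright H2A probes lie close together on both arrays.

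The spread among the classes was uneven. Linker histone probes had the lowest median, -0.32 over 6 probes measured on both arrays, with 5 of the 6 below 0. The H2A median was 0.28 over 14 probes, the H2B median 0.10 over 16, the H3 median 0.27 over 7 and the H4 median 0.06 over 13. No H4 probe and no H3 probe measured on both arrays was 2-fold lower, whereas 2 H1, 2 H2A and 4 H2B probes were. Only the signs of the H1 median and the H3 median held under every scaling tried. The H2A median became -0.27 with quantile normalisation and -0.22 with loess, and with the spike-in controls the H2B and H4 medians became -0.16 and -0.20.

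**Figure D2:**
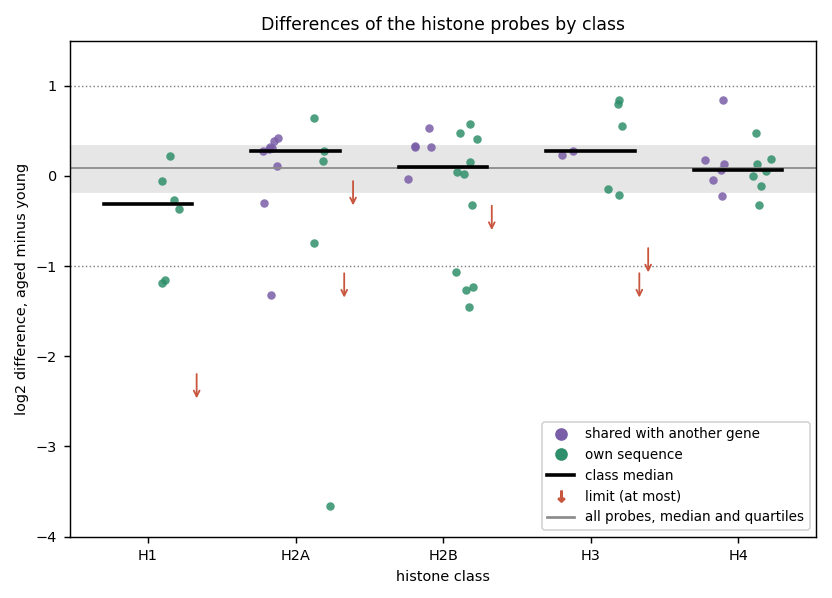
Difference between the arrays (log2, aged minus young, vertical axis) for the 56 histone probes measured on both arrays, by class, with shared probes in purple, own-sequence probes in green and the class median as a black bar; red arrows start at the limit of probes measured on the young array only, the grey band spans the quartiles of all probes and dotted lines mark 2-fold. The points below the lower dotted line are own-sequence probes except for 1 shared H2A probe, Hist1h2ao.

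Own-sequence and shared probes gave different pictures. All 22 shared probes were measured on both arrays, with a median difference of 0.28 and 1 probe lower by at least 2-fold. Of the 52 own-sequence probes, 34 were measured on both arrays, with a median of 0.01 and 7 probes lower, and all 3 limits past 2-fold were among them. Leaving out the shared probes thus brought the median of the histone probes from 0.13 to 0.01 and the count of measured probes that were lower from 8 to 7. For 3 of these 7 the files list no RefSeq transcript. Several shared probes are bright H2A probes, and the 719 probes of the whole array in the range of the brightest of these had a median of 0.48. Sharing and brightness cannot be told apart here. No test of the difference between these kinds of probe was made.

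Among the linker histones, which fold the nucleosome chain into more compact chromatin, the lower values belonged to Hist1h1c and Hist1h1b. Hist1h1c (H1.2, now H1f2) has 2 probes, 628 bases apart on chromosome 13. The probe that ends in the stem-loop, at chr13:23831330-23831389 in the files' NCBI37 (mm9) coordinates, read 239 in young and 81.2 in aged cells. The probe farther downstream, at chr13:23832018-23832077, read 2087 and 723. The differences were -1.19 ± 0.21 and -1.16 ± 0.20 (software error), or 2.27-fold and 2.23-fold lower, so that the stem-loop probe and the one beyond it were lower by about the same fold. The stem-loop probe came to -0.80 with the normexp background correction and the downstream probe to -0.98 with centring on the median, both under 2-fold. Hist1h1b (H1.5, now H1f5), a linker histone abundant in dividing cells, read 82.4 in young cells and 14.1 in aged cells, not well above background. Its level was at least 4.46-fold lower, and with normexp the limit was -0.61 on the log2 scale, under 2-fold.

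The other linker histones were under 2-fold. Hist1h1e (H1.4), one of the more widespread somatic forms, read 1250 and 804, a difference of -0.26. Hist1h1d (H1.3) read 44.8 and 26.9 by 1 probe, a difference of -0.37, and its other probe was measured on neither array. Hist1h1a (H1.1) read 34.0 and 25.3, a difference of -0.06 that changed sign under other scalings. Hist1h1t, the testis form, gave the only value above 0 in the class, with signals of 18.9 and 17.1 that lie just over the background limit and a difference of 0.23, which became -0.03 with the spike-in controls.

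In the H2A class, the histone probe with the largest measured drop stood beside a block of bright probes that lay within 0.11 to 0.43. Hist1h2ab (now H2ac4), a core histone gene of the Hist1 cluster, read 508 in young and 31.1 in aged cells by an own-sequence probe that ends in the stem-loop, at chr13:23843392-23843451. The relative level went from 0.99 to -2.67, a difference of -3.66 ± 0.26 (software error) or 12.6-fold lower. Over the scalings and the background correction this difference ranged from -3.91 to -2.21. The shared probes of Hist1h2af and Hist1h2ak, also listed for Hist1h2ab, differed by 0.30 and 0.28. Hist1h2ad, another H2A gene of that cluster, read 38.0 in young cells and 3.23, a value at background, in aged cells, which is at least 2.06-fold lower. This limit fell under 2-fold with median centring, quantile normalisation and normexp (-0.87, -0.88 and -0.30 on the log2 scale). The shared probes of Hist1h2ah and Hist1h2an, also listed for Hist1h2ad, differed by 0.30 and 0.11.

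The 6 probes on the coding end of H2A, among them the 4 shown above, read 10370 to 25639 in young and 8663 to 26599 in aged cells. All 6 differences lay above 0, between 0.11 and 0.43, with a median of 0.30. Their place relative to 0 depends on the scaling, since all 6 fell below 0 with quantile normalisation (-0.42 to -0.15) and with loess (-0.32 to -0.11). The 719 probes of the whole array in the same range of mean relative level, 5.40 to 6.86, had a median difference of 0.48 with quartiles of 0.25 and 0.65. Hist1h2ag, whose probe is near-identical to 4 of the 6, read 8357 and 5255 and lay below 0, at -0.30. The 6 coding-end probes thus lay below the middle of probes as bright as they are. Among them Hist2h2aa2, an H2A gene of the Hist2 cluster, had a difference of 0.43 that ranged from -0.15 to 0.60 over the scalings. Its neighbour Hist2h2aa1 read 11121 and 13393 by a probe with the whole stem-loop, a difference of 0.64 that kept its sign under every scaling (0.10 to 0.81). The other Hist2h2aa1 probe, matched to a separate cDNA, read 18.7 in young cells and 8.97 in aged cells, not well above background.

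On chromosome 13, the Hist1h2an and Hist1h2ao probes overlap in the files' coordinates. The Hist1h2an probe, at chr13:21902669-21902728, ends at the stop codon and read 10370 and 8663, a difference of 0.11. The Hist1h2ao probe, at chr13:21902695-21902754, reaches 26 bases past it and read 4657 and 1436, a difference of -1.32 or 2.51-fold lower. The value of the Hist1h2an probe changed sign under other scalings. The files list 4 genes for the Hist1h2an probe and 2 for the Hist1h2ao probe, so which copy was lower cannot be told apart. The Hist1h2ai probe that ends in the stem-loop read 57.8 and 26.7, a difference of -0.74. The files place it over the same stretch, but across 74 bases for its 60 and with 17 mismatches to the Hist1h2ao probe over an overlap of 49 bases, so that the sequences of the 2 probes do not match there. Hist3h2a, an H2A gene of the small Hist3 cluster, read 2625 and 2271 by 1 probe and 710 and 665 by the other, with differences of 0.16 and 0.28, the first of which turned to -0.13 under another scaling. Of the 22 H2A probes, 6 were measured on neither array, the most of any class.

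By count, the H2B class held the most lower probes, 4 of the 16 measured on both arrays, beside 2 of 6 for H1. Hist2h2be (now H2bc21), an H2B gene of the Hist2 cluster known to be transcribed outside S phase as well, has 2 own-sequence probes 137 bases apart. The probe at chr3:96027381-96027440 read 293 in young and 82.8 in aged cells, and the probe at chr3:96027578-96027637 read 382 and 123. The differences were -1.45 ± 0.21 and -1.26 ± 0.21 (software error), or 2.74-fold and 2.40-fold lower. Normexp brought both just under 2-fold, to -0.95 and -0.98.

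Hist1h2be and Hist3h2ba each had 1 probe past 2-fold lower and 1 above 0 that was under 2-fold. Hist1h2be read 74.9 and 86.5 by its RefSeq probe, a difference of 0.58, and 109 and 35.8 by a probe to an Ensembl transcript placed 35198 bases away, a difference of -1.23 that shrank to -0.56 with normexp. Hist3h2ba read 112 and 121 by the probe that ends in the stem-loop, a difference of 0.48. Its other probe lies 100 bases beyond the end of the first, past the stem-loop, and read 63.4 and 23.5, a difference of -1.06 that was under 2-fold with median centring, quantile normalisation and normexp (-0.28). These are the only genes whose probes lay more than 1 log2 unit apart among the 11 histone genes with 2 probes measured on both arrays. In 7 of these 11 genes the probes lay on opposite sides of 0. Hist1h2bb was 1 of them, with 1947 and 1902 by a shared probe (0.34) and 85.2 and 52.6 by an own-sequence probe (-0.32).

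**Figure D3:**
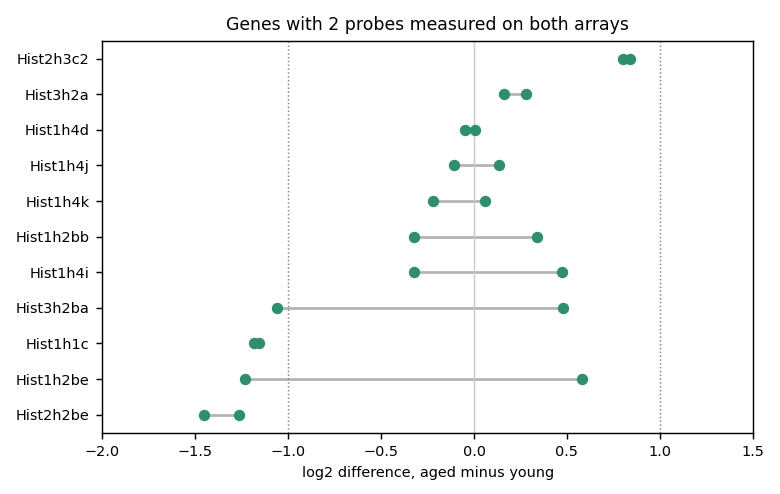
Difference between the arrays (log2, aged minus young, horizontal axis) for the 11 histone genes with 2 probes measured on both arrays, each point 1 probe, with a line joining the probes of a gene and dotted lines at 2-fold. Both probes were past 2-fold for Hist1h1c and Hist2h2be, and 1 of 2 for Hist1h2be and Hist3h2ba.

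The remaining H2B genes were under 2-fold. Hist1h2bc (now H2bc4), whose transcripts are also found polyadenylated in resting cells, read 7687 in young and 7908 in aged cells, a difference of 0.41 that ranged from -0.06 to 0.59 over the scalings. Hist1h2bq read 26.3 and 29.4, a difference of 0.54, by a shared probe. Hist2h2bb read 74.5 and 58.3 by the stem-loop probe shown above, a difference of 0.02. Its downstream probe read 22.6 in young cells and 5.27 in aged cells, not well above background, at least 1.22-fold lower.

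The H3 class held no measured probe past 2-fold, and Hist2h3c2 had its highest differences. Hist2h3c2 (now H3c15), an H3.2 gene of the Hist2 cluster, read 679 in young and 939 in aged cells by 1 own-sequence probe and 559 and 752 by the other. The differences were 0.84 ± 0.20 and 0.80 ± 0.20 (software error), and they stayed above 0 under every scaling, between 0.54 and 1.01, the highest only with centring on the median. Its neighbour Hist2h3c1 read 339 and 385, a difference of 0.56. The lower H3 values came from the Hist1 cluster. Hist1h3i (now H3c11), with the whole stem-loop in its probe, read 42.7 in young cells and 16.1 in aged cells, not well above background. It was at least 2.05-fold lower, just past the threshold, and its limit was under 2-fold with median centring, quantile normalisation and normexp (-0.86, -0.89 and -0.19 on the log2 scale). Hist1h3a, also a stem-loop probe, read 31.3 and 7.58 and was at least 1.69-fold lower. A shared probe of Hist1h3d, also listed for Hist1h3i, differed by 0.27. Hist1h3c and Hist1h3f differed by -0.14 and -0.21, the first changing sign with median centring (0.03) and the second with normexp (to 0.00).

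The H4 class, whose protein is the same from nearly all of its genes, held no probe past 2-fold. Its 13 probes measured on both arrays lay between -0.32 and 0.84. Hist1h4m (now H4c17), with a stem-loop probe listed for 2 genes, read 151 and 208, a difference of 0.84 that stayed above 0 under every scaling (0.58 to 1.01). Hist1h4i, by 2 own-sequence probes, read 262 and 162 (-0.32) and 270 and 289 (0.47). Hist1h4k, by shared probes, read 3382 and 2727 (0.06) and 648 and 430 (-0.22), and the first changed sign under other scalings. Hist4h4, the lone gene of its cluster on chromosome 6, read 512 and 433, a difference of 0.13 that changed sign under other scalings, while its second probe was measured on neither array.

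The clusters differed in their middle. Genes named Hist1 on chromosome 13 have 52 of the probes, 1 of which, for Hist1h2al, lies apart from the cluster at chr13:51295494-51295553 and was measured on neither array. The 40 Hist1 probes measured on both arrays had a median of 0.05 with 5 lower. The 11 such probes of the Hist2 cluster on chromosome 3 had a median of 0.38, and its 2 lower probes were both of Hist2h2be. All 3 limits past 2-fold were in the Hist1 cluster. Whether these medians differ was not tested, and the Hist2 cluster holds several of the bright probes whose sign turns with the scaling.

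Promoter sequences were looked at because members with low and with high differences lie in the same clusters. RefSeq promoters on GRCm38.p6, 250 bases before to 50 after the start, matched 50 of the 57 genes with 51 promoters. On either strand, CCAAT was found in 88.2% of them against 37.4% of all 32851 promoters, TATAAA in 58.8% against 13.6%, and both motifs, which can share at most 1 base, in 51.0% against 5.31%. The 110 bases before the start are shown for the gene with the largest drop, for the linker histone with the largest limit and for the H3 gene with the highest difference, on the gene's strand, with TATAAA and with CCAAT or its reverse complement ATTGG in capitals.
Hist1h2ab: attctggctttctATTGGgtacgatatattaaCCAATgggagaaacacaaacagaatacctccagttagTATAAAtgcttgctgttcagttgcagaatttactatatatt
Hist1h1b: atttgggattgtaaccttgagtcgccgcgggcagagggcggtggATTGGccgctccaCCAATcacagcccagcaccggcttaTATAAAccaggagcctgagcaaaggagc
Hist2h3c2: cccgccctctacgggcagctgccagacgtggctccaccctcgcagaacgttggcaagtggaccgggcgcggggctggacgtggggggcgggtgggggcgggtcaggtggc
On GRCm38.p6 these lie at chr13:23750978-23751087 on the plus strand, chr13:21780626-21780735 on the minus strand and chr3:96239128-96239237 on the minus strand. TATAAA began at position -41 from the start in Hist1h2ab and at -28 in Hist1h1b. Neither motif is spelled in the Hist2h3c2 stretch shown. The genes shown were picked by their differences, and whether either motif goes with the difference across the histone genes was not tested.

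The genes that work with these histones were read by the brightest kept probe per gene, for which 5.14% of 21284 genes were at least 2-fold lower, measured or by limit, and 2.53% higher. Of 17 factors that transcribe histone genes or form and degrade their mRNA ends, 0 were past 2-fold in either direction, and the median was -0.02. Slbp, the stem-loop binding protein, read 171 and 119 (-0.16). Npat, the coactivator of histone gene transcription at histone locus bodies, read 27.1 and 19.4 (-0.11). Of the 16 measured on both arrays, the lowest was Zcchc11, a uridylyl transferase that marks histone mRNA for decay, at -0.61, and the highest Cstf2, a 3' end cleavage factor, at 0.44. Zfp473, measured on the young array only, was at least 1.57-fold lower.

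Most replication-independent variants are made from ordinary polyadenylated genes outside S phase too. Of 11 variant genes listed, 1 was past 2-fold, with a median of 0.08 over the 10 measured on both arrays. Cenpa, the H3 variant of centromeres, read 63.1 in young cells and 11.6 in aged cells, not well above background, at least 3.42-fold lower. This call was lost with normexp. It was also absent with the mean of a gene's probes and with a signal of at least 50 on both arrays, but these settings count no limits and could not keep it. H1f0, the linker histone of differentiated cells, read 103 and 47.7 (-0.74), and H2afx, the variant phosphorylated at DNA breaks, read 410 and 200 (-0.66), neither past 2-fold. H3f3b, which encodes the H3.3 variant, read 21965 and 19933 (0.23).

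Of 20 histone chaperone genes, 3 were lower, and all 3 serve deposition at replication forks. Chaf1a, the large subunit of chromatin assembly factor 1, read 54.9 and 15.8 (-1.42), and Chaf1b, its middle subunit, read 261 and 99.0 (-1.02). Asf1b, which hands H3-H4 to that complex, read 158 and 52.9 (-1.21). Hira and Daxx, which place H3.3 independently of replication, differed by 0.13 and -0.21. Not every gene that can act at replication was lower, as Rbbp4, Nasp, Hat1 and Ssrp1 differed by 0.24, -0.12, -0.06 and 0.17. The list's median was 0.00, and with normexp none of the 20 was past 2-fold.

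Of 24 genes active in S phase, 10 were lower and 0 higher, with a median of -0.46 over 18 measured on both arrays. Those measured lower were Mcm3, Mcm5 and Mcm6, of the replicative helicase, Rrm2, Pola1 and E2f1, between -1.73 for E2f1 and -1.12 for Pola1, while Tk1, Ccna2, Top2a and the proliferation marker Mki67 were lower by limit, the last by at least 24.8-fold. The count was 6 with normexp, 5 with the mean of a gene's probes and 3 with a signal of at least 50 on both arrays. The gene mean and the signal filter count no limits, so Tk1, Ccna2, Top2a and Mki67 could not be counted there by limit. The filter also leaves out probes under 50 on either array, whatever their fold.

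**Figure D4:**
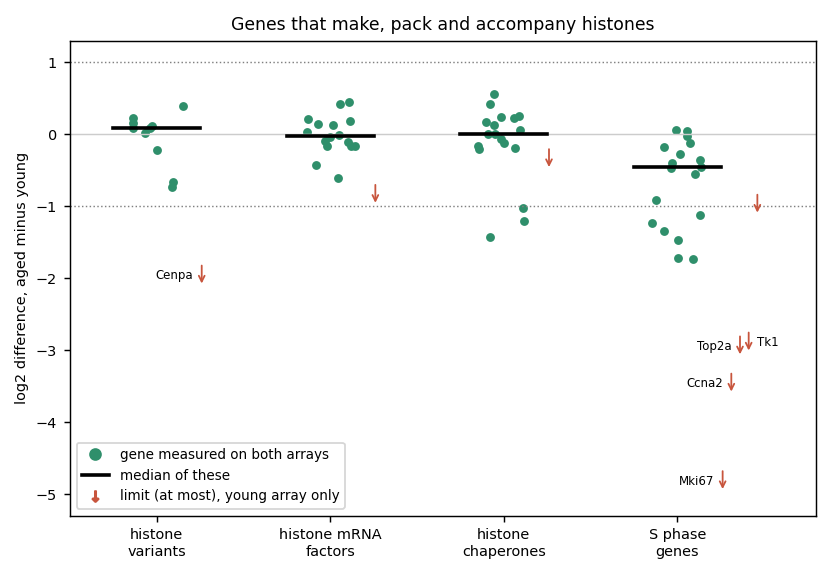
Difference between the arrays (log2, aged minus young, vertical axis) for histone variants, factors of histone mRNA, histone chaperones and S phase genes, each point 1 gene by its brightest kept probe measured on both arrays, black bars the medians; red arrows start at the limit of genes measured on the young array only and dotted lines mark 2-fold. The S phase genes have the lowest median, -0.46, beside -0.02 for the factors of histone mRNA.

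Markers of other cell types differed between the arrays too. All 8 epithelial markers were measured on at least 1 array, none was past 2-fold, and Epcam differed by 0.20. Of 8 acinar and duct markers Smr3a was higher, and of 5 basal and myoepithelial markers Myh11 was lower. All 5 markers of the macrophage list on the array were below 0, 3 of them past 2-fold. Ptprc, which is not particular to macrophages, differed by -0.21. The summed signal of the 5 went from 135 to 51.8 times the 75th percentile. Lyz2 was the brightest of them, with signals of 23810 and 4884, and weighs most in that sum. All 4 fibroblast markers were at least 2-fold lower, from 4.59 to 1.58 in summed signal. Among B and plasma cell markers, Cd79b and Jchain were lower, Pax5 differed by 0.17, and Cd79a and Mzb1 were measured on neither array. Ms4a1, measured on the young array only, was at least 1.94-fold lower, under the 2-fold threshold. Of 5 T cell markers, 3 measured on both arrays lay above 0 and under 2-fold (Cd3e 0.56, Cd3d 0.62 and Cd4 0.05), Cd3g was lower by limit and Cd8a was measured on neither array, and the summed signal went from 10.4 to 12.4. None of the 3 endothelial markers was past 2-fold. The part of these cells in the histone values was not tested.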

How the data were processed

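Per the labels, Cy3-labelled cRNA from 50 ng of total RNA was hybridised to 1-colour Agilent mouse arrays, and the submitters' processing notes name Agilent Feature Extraction 12.0.3.1. The deposited scanner files hold the processed intensity of each spot, background-subtracted and not scaled between arrays, with its error and a mark for spots well above background. The authors' processed table holds the same signal divided by 1 constant per array, found as 229 and 176, which all 62976 spots followed within 0.1%. It was used as an alternative only.

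Here, each log2 intensity was set against the array's 75th percentile, found from 59305 non-control spots. No spot was saturated, outlier spots were left out, and spots of a probe were averaged. Of these spots, 32875 (55.4%, young) and 30111 (50.8%, aged) were well above background. The number of arrays limits the precision, and signal above background limits it for dim probes. Both arrays lie on 1 slide, so no block could be fitted. Groups came from the age in the labels. Current names came from RefSeq genes on GRCm38.p6, for all 74 probes, 54 by accession and 20 by synonym. The histone probes, the lists of related genes and the markers were chosen with earlier results of these data known. One marker of the B and plasma cell list is not reported here. Genes were named where a probe passed 2-fold, where a difference was among the 2 highest or lowest of a class, or where the gene belonged to 8 chosen because some are known to give polyadenylated transcripts. For each other list, the members past 2-fold or, with none, the highest and the lowest were named. Hist1h1e, Hist1h1d, Hist1h2bb, Hist2h2bb, Hist2h3c1, Hist1h3a, Slbp, Npat, H1f0, H2afx, H3f3b, Hira, Daxx, Rbbp4, Nasp, Hat1, Ssrp1, Hist1h2af, Hist1h2ag, Hist1h2ah, Hist1h2ak, Hist1h2al, Hist1h3d, Zfp473 and the overlapping H2A probes were named after their values were seen.

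Alternatives were the 75th percentile of probes measured on both arrays, median centring, quantile normalisation, loess (span 0.7, 3 iterations), the spike-in controls, normexp (offset 50), different filters for dim probes, kept outliers, the authors' table, 1 value per gene, and leaving out stem-loop or near-identical probes. Software was R 4.3.3, limma 3.58.1, Python 3.11.15, numpy 2.4.6, pandas 2.3.3 and matplotlib 3.10.9, and the steps were tested on simulated data.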

Additional observations from a re-analysis of the deposited data

How the results depend on the processing

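Of 552 values recomputed under the alternatives, 478 kept within the software error or within 1.5 times the count and 74 moved. The filters for dim probes leave the difference of each probe unchanged, and the authors' table differs by 1 constant per array. Many of the 478 could therefore move little or not at all. The 8 histone probes measured as lower were below 0 under every scaling and background correction tried. Median centring gave 2 histone probes higher by at least 2-fold, Hist2h3c2 and Hist1h4m, and 1 limit past 2-fold. Quantile normalisation gave 1 limit, a median of -0.11 and an H2A median of -0.27, and loess gave -0.14 and -0.22. With the spike-in controls the median was -0.13 and the class medians -0.57 (H1), 0.020 (H2A), -0.16 (H2B), 0.016 (H3) and -0.20 (H4). Normexp left 3 probes lower (of Hist1h1c, Hist1h2ab and Hist1h2ao), 0 limits, 0 variants, 0 chaperones and 6 S phase genes. Without a filter on dim probes 14 probes were lower and 3 higher, with an H3 median of 0.046, and with a filter on the young array only 13 were lower. A signal of at least 50 on both arrays left 5 lower probes, an H1 median of -1.16, 0 lower variants and 3 lower S phase genes. The brightest probe per gene gave 4 lower genes and an H2B median of 0.33. The mean over the probes of a gene gave 4 lower histone genes, 0 variants and 5 S phase genes. The signal filter and this mean count no limits, and the filter leaves out dim probes without changing any difference. Leaving out shared probes, chosen after seeing the data, gave 7 lower probes and a median of 0.01. Other causes of these shifts were not tested.

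The scaling sets the zero of every difference. It moved the median of all probes by 0.17 with median centring, -0.11 with the 75th percentile of probes measured on both arrays, -0.12 with loess and -0.26 with the spike-in controls. Over all probes 750 were lower and 376 higher, against 530 and 633 with median centring, 936 and 274 with the 75th percentile of probes measured on both arrays, and 1283 and 195 with the spike-in controls. Normexp gave 238 lower and 123 higher. No paired analysis was possible because each age has 1 array. Probes near the background limit, such as those of Hist1h1t and Hist1h1a, have the least precise differences.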
